A study of Mus musculus with 12 samples.

Results

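Described here are 39 genes of the lysosome and of autophagy, the route by which a cell wraps its own material in a membrane and hands it to the lysosome for breakdown. They were taken from the deposited table by gene symbol, 39 of 56791 gene names. All 39 passed the filter on low values, a mean of at least 1 FPKM over the 12 libraries, as did 17540 genes in all. FPKM counts fragments per kilobase of a gene's exonic length, scaled to 1000000 fragments per library, so levels of different genes are compared per length.

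The study asks how TNFR2, a receptor for tumour necrosis factor encoded by Tnfrsf1b, acts in astrocytes on hippocampal synapses. Hippocampal astrocytes of adult naive male mice were isolated by fluorescence-activated sorting for ACSA-2, an astrocyte surface antigen. Mice labelled Ctrl were Tnfrsf1bfl/fl, with floxed alleles of the receptor gene and no other allele named. Mice labelled cKO were GfapcreERT2:Tnfrsf1bfl/fl, which carry the same floxed alleles and a tamoxifen-inducible Cre recombinase driven by the Gfap promoter. Gfap is expressed by astrocytes and also by neural stem cells of the dentate gyrus. The Ctrl libraries are A1, A2 and A8, and the libraries labelled cKO are A4, A9 and A10. Each A number has 2 libraries, S1 and S2, and the labels define neither letter. S1 and S2 were averaged into 1 unit, so n is 3 units per genotype. Nothing in the labels says that units are separate animals, and p-values measure only the spread between these units, which may be technical.

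Lysosomes hold acid hydrolases that cut proteins, sugar chains and lipids, and a proton pump, the V-ATPase, keeps their interior acidic. Autophagosomes form around cargo under the control of the Ulk1 kinase and the Becn1 lipid kinase complex, acquire Atg8 family proteins joined to a membrane lipid, and fuse with lysosomes. Many genes of both systems are controlled together by the transcription factors Tfeb and Tfe3. In astrocytes this system degrades material taken up from the surroundings, synaptic debris included.

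Total reads recovered from the FPKM values were 17311872 to 22025823 in the S1 libraries and 28096485 to 35323322 in the S2 libraries. Of the recovered whole numbers from 1 to 20, 72.6% to 80.4% were even in each library. Both reads of a pair may thus have been counted, so read numbers may exceed the number of fragments. No member had fewer than 192 reads in any library. Tnfrsf1b was listed at 0 in 9 of the 12 libraries, 5 of the 6 Ctrl libraries among them, with at most 4 reads in a Ctrl library. The unit A4, labelled cKO, had 10 and 22 Tnfrsf1b reads, more than any Ctrl library. The source of these reads was not tested, and the groups are called by their labels throughout. Astrocyte markers were abundant, with summed levels of 3970 to 4973 FPKM in the Ctrl units and 4816 to 5514 FPKM in those labelled cKO, and all 12 were higher on average in the latter. The 12 oligodendrocyte markers summed to 1096 to 2354 FPKM in Ctrl and 313 to 753 FPKM in the units labelled cKO. All 12 were lower there at an unadjusted p under 0.05. The 5 markers listed for precursors of that lineage summed to 94.2 to 134.6 FPKM against 53.6 to 77.0 FPKM. Most of this was Olig1 and Sox10. Pdgfra, Cspg4 and Gpr17 measured at most 2.70 FPKM in any unit, and the units of each overlapped between genotypes. The 11 microglial markers that are on no pathway list were scarce, with sums of 4.20 to 4.61 FPKM in Ctrl and 6.64 to 19.9 FPKM in the units labelled cKO, A4 being the highest, and 10 of them were higher on average there. Only P2ry12, the microglial purinergic receptor, passed the filter, and it measured 1.17, 2.08 and 4.08 FPKM in A1, A2 and A8 and 9.22, 6.70 and 4.97 FPKM in A4, A9 and A10. Its units did not overlap (unadjusted p = 0.0095 in the limma fit), while Tmem119 was listed at 0 in 8 libraries and Trem2 in 9. The perivascular macrophage markers Lyve1 and Pf4 were listed at 0 in every library. In such sorted bulk samples, fewer cells of a type and less RNA per cell cannot be told apart. Unit A8 lay outside the range of the other 5 units in 45.8% of all tested genes and in 43.6% of the members.

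The comparison of genotypes asks whether the lysosomal and autophagy transcripts differed in the mice labelled cKO. Summed over the 39 genes, the level was 1490 ± 13.5 FPKM in Ctrl and 1529 ± 88.2 FPKM in the units labelled cKO (SD, n = 3 each). By unit, the sums were 1502, 1492 and 1475 FPKM in A1, A2 and A8, and 1446, 1621 and 1521 FPKM in A4, A9 and A10. The Ctrl units lay within the range of the others. Of the members 19 were higher and 20 lower in the units labelled cKO, and the median difference was -0.0017 on the log2(FPKM + 1) scale against -0.0065 over all tested genes. Rescaling the libraries by their upper quartile turned this split into 25 higher and 14 lower, and it moved the median of all genes by 0.064.

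None of the 39 genes passed the test. With limma, 0 of 39 reached an adjusted p of 0.05, the nearest being at 0.333. Over all tested genes the count was also 0 (0%), and voom on recovered reads gave 0 as well. At an unadjusted p under 0.05, 2 members stood out, Ctsl on the higher side and Mcoln1 on the lower. Over all tested genes 7.69% reached that p, 2.98% higher and 4.71% lower. The oligodendrocyte and microglial markers differed between the same groups as given above, and their part in the members' values was not tested.

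In 10 of the 39 members the 3 units labelled cKO were all above or all below the 3 Ctrl units. This held for 13% of all tested genes. Ctsl, Glb1, Ctsf, Asah1 and Laptm4a were the 5 on the higher side, where the share over all genes was 5.76%. Mcoln1, Atp6ap1, Scarb2, Map1lc3b and Lipa were the 5 on the lower side, where the share over all genes was 7.22%. In 5 of the 10 (Ctsl, Mcoln1, Scarb2, Ctsf and Lipa) the single libraries were apart as well, as they were in 54.7% of all genes with separate units. The plot of these 10 genes by library shows that S1 and S2 of a unit lay close together.

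**Figure D1:**
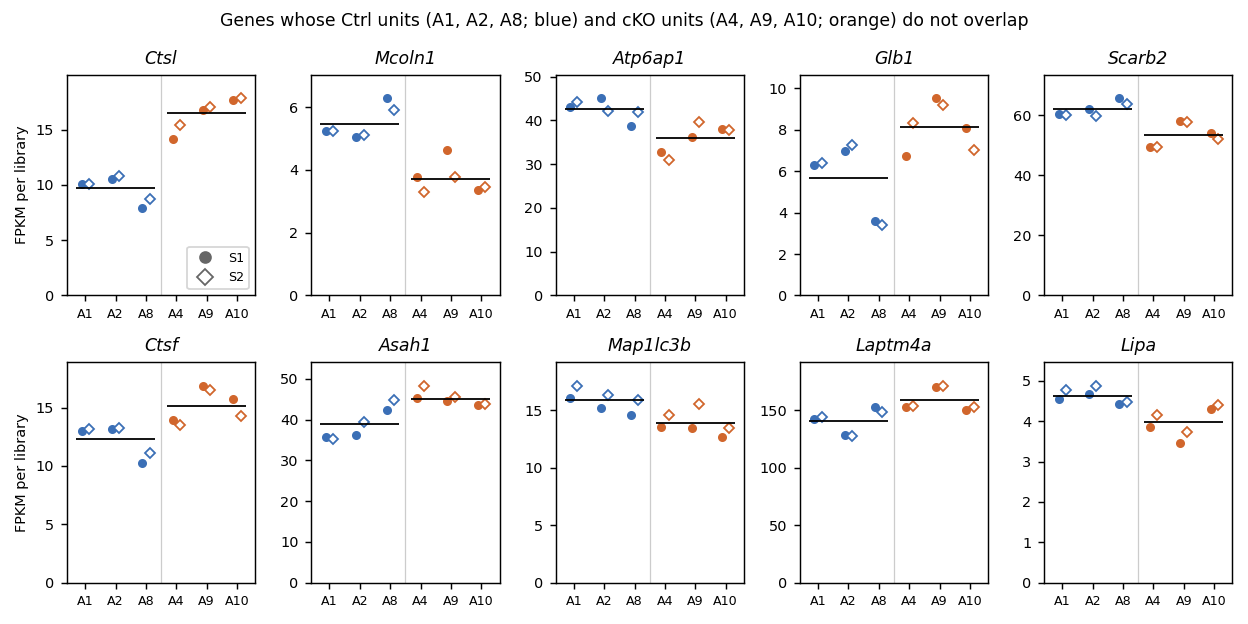
FPKM (linear axis from 0) of the 10 genes whose units did not overlap, with S1 as filled circles and S2 as open diamonds for each A number and a line at each group's mean over 3 units. Ctsl shows the widest gap relative to its level, with 9.70 FPKM on average in Ctrl and 16.5 FPKM in the units labelled cKO.

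Differences among the members were small beside those of other genes. The median size of a difference was 0.10 (log2) over the members and 0.21 over all tested genes, and 1 member (2.56%) against 19.4% of all genes differed by over 0.5. Members were also more abundant, with a median Ctrl level of 19.8 FPKM against 4.44 FPKM. Their spread between units was smaller, with a median SD of 0.17 in Ctrl and 0.14 in the units labelled cKO, against 0.33 and 0.23 over all genes. The plot of each gene's difference shows most members inside the middle 50% of all tested genes.

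**Figure D2:**
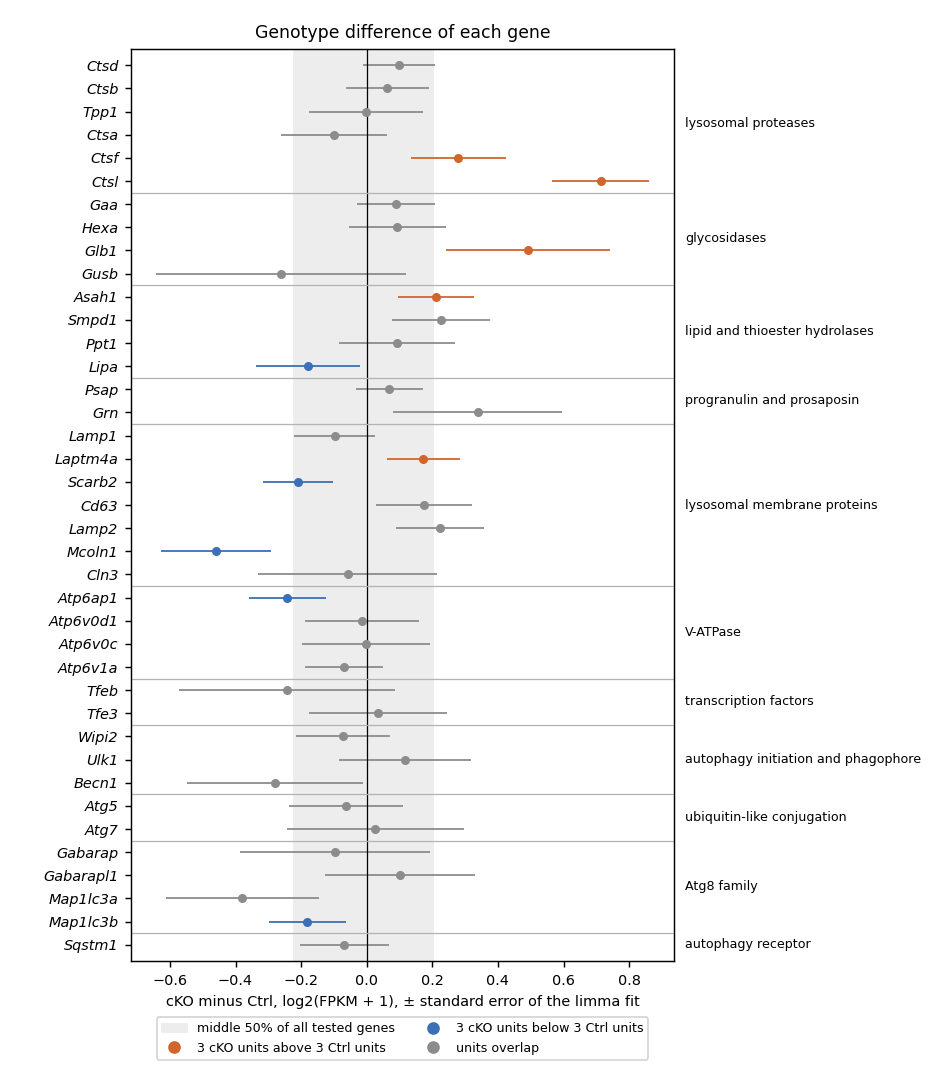
Difference of each of the 39 genes, units labelled cKO minus Ctrl, on the log2(FPKM + 1) scale with the standard error of the limma fit, ordered by role. Only Ctsl lies beyond 0.5, at 0.71 ± 0.15 (SE), and the grey band holds the middle 50% of all tested genes.

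Tfeb, the transcription factor that switches on lysosomal and autophagy genes, was measured at 4.59, 6.16 and 2.50 FPKM in Ctrl A1, A2 and A8, and at 3.95, 4.34 and 2.21 FPKM in A4, A9 and A10. The groups overlapped, and A8 and A10 were the low units of their groups. Its difference was -0.24 (log2, SE 0.33, limma adjusted p = 0.932), with -0.53 when A8 was left out and -0.01 when A2 was. Tfe3, a factor of the same family with overlapping targets, stood at 3.33, 2.92 and 2.23 FPKM in Ctrl and at 2.57, 3.35 and 2.80 FPKM in the units labelled cKO. Here A8 was the lowest of the 6 units, and the difference of 0.03 (log2, SE 0.21) was smaller than its error. Both factors were among the scarcer members, at 2 to 6 FPKM.

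The DNA element that both factors bind is built on the palindrome CACGTG, and its longer form contains GTCACGTG. A RefSeq promoter (GRCm38.p6, 250 bases before to 50 after the start) was found for 35 of the 39 genes. CACGTG lay in a promoter of 13 of these 35 genes (37.1%). The share was 11.4% of 10040 tested genes with a promoter, 8.09% of all 27025 genes with one and 19.3% of 166 other genes of the pathway. GTCACGTG, searched on both strands and always overlapping a CACGTG, was present in 8 members (22.9%), against 4.74% of the tested genes and 14.5% of the other pathway genes. A match is only a run of letters and no measured binding. For Ctsl, whose RefSeq start lies 370 bases inside a longer GENCODE transcript, the match 236 bases before that start falls within the span of this transcript.

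The promoter stretches below are shown because their genes either lay apart between genotypes (Mcoln1, Glb1 and Ctsf) or held the most matches of any member (Lamp1, with 4). Ctsl is not shown, because its window lies inside an annotated transcript. Each is RefSeq GRCm38.p6 plus strand, 5′ to 3′, and ends before the annotated transcripts begin. Mcoln1 has a further GTCACGTG match, 45 bases before its RefSeq start. That match is not shown, because it lies within the span of a longer GENCODE transcript. Capitals mark CACGTG, extended to GTCACGTG or its reverse complement where the longer form is met. The stretches are chr8:13159041-13159160 for Lamp1, chr8:3500399-3500456 for Mcoln1, chr9:114400958-114401075 for Glb1 and chr19:4855045-4855129 for Ctsf.
Lamp1: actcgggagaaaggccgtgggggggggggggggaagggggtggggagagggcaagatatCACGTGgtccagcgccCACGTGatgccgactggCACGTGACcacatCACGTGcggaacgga
Mcoln1: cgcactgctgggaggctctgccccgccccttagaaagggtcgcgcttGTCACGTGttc
Glb1: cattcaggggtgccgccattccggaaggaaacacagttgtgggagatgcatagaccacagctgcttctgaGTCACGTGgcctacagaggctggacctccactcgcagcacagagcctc
Ctsf: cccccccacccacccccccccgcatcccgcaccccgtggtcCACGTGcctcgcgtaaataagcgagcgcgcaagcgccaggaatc

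The 13 genes with a CACGTG were Atg5, Atg7, Atp6v0d1, Atp6v1a, Cln3, Ctsa, Ctsd, Ctsf, Ctsl, Gaa, Glb1, Lamp1 and Mcoln1. Of these, 6 were higher and 7 lower in the units labelled cKO, with a median difference of -0.01 (log2). Among the 22 members with a promoter and no match, 11 were higher and 11 lower, and the median was 0.02. Genes with the motif thus lay on both sides, from Mcoln1 at -0.46 to Ctsl at 0.71.

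Ctsl, which encodes the cysteine protease cathepsin L, had the largest difference of the members on the log2 scale. It measured 10.1, 10.7 and 8.33 FPKM in Ctrl A1, A2 and A8, and 14.8, 16.9 and 17.8 FPKM in A4, A9 and A10. Every unit labelled cKO was above every Ctrl unit, and so was every library. The mean was 9.70 ± 1.23 FPKM in Ctrl and 16.5 ± 1.52 FPKM in the units labelled cKO (SD, n = 3 each), a ratio of 1.70. On the log2 scale the difference was 0.71 (SE 0.15, unadjusted p = 0.0020, limma adjusted p = 0.333). When the 12 libraries entered singly, with a random effect for the unit, its limma adjusted p was 0.0465. It was then the only member among the 112 genes (0.639% of those tested) past the threshold. That fit used the same correlation within units, 0.915, for all genes. It drew its error from 12 libraries, though only 6 units exist, so it adds no units to the comparison. The adjusted p over all settings ran from 0.0465 to 0.845. Leaving out any one unit kept the difference between 0.62 and 0.79. Ctsl lies on chromosome 13, from 64507151 to 64518704 (ENSMUSG00000021477), in the coordinates of the deposited table, whose build is not stated and which differ from GRCm38 for all 39 genes.

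Ctsf, the cysteine protease cathepsin F (ENSMUSG00000083282, chromosome 19, 4905158 to 4910946), measured 13.1, 13.2 and 10.7 FPKM in A1, A2 and A8 against 13.7, 16.7 and 15.0 FPKM in A4, A9 and A10. The units were apart by a narrow margin, since A4 was just above A2. The difference was 0.28 (log2, SE 0.15, limma adjusted p = 0.738). The other 4 proteases overlapped between genotypes. Ctsd, the aspartic protease cathepsin D and the most abundant protease here, averaged 73.3 ± 1.60 FPKM in Ctrl and 78.7 ± 7.33 FPKM in the units labelled cKO. Ctsb, cathepsin B, averaged 45.4 ± 3.09 and 47.5 ± 5.51 FPKM. Tpp1, which trims tripeptides from protein ends, averaged 42.4 ± 8.97 and 41.8 ± 3.83 FPKM, and Ctsa, a carboxypeptidase that also protects other hydrolases, 19.8 ± 3.56 and 18.2 ± 1.54 FPKM. The units of the genotypes were thus apart in Ctsl and Ctsf and mixed in the more abundant Ctsd, Ctsb and Tpp1.

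**Figure D3:**
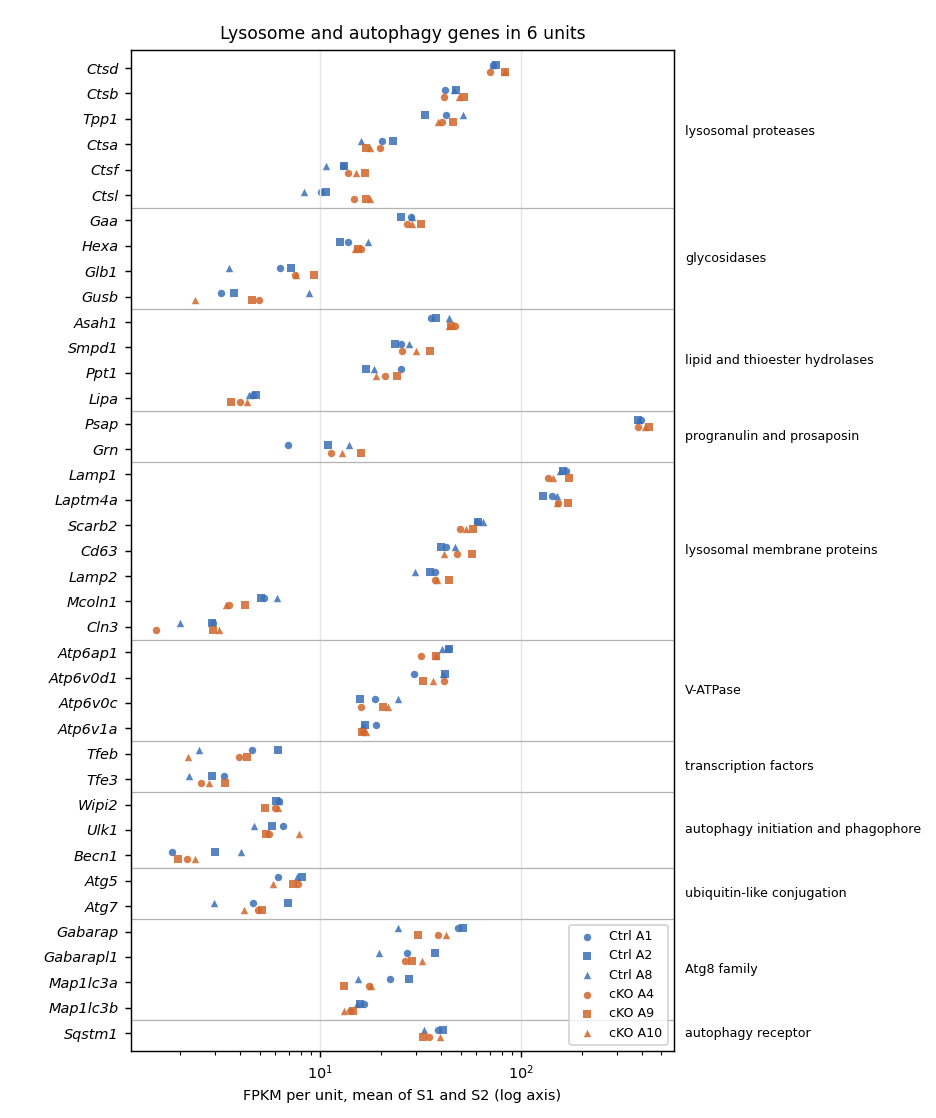
FPKM (log axis) of the 39 genes in each of the 6 units, S1 and S2 averaged, grouped by role, with Ctrl units in blue and units labelled cKO in orange. Psap is the highest, at 381 to 435 FPKM, and the blue and orange points of most genes are mixed.

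The plot of levels by unit includes the 4 glycosidases, which take sugars off glycans and glycolipids, at mean Ctrl levels of 5.24 to 27.4 FPKM against 9.70 to 73.3 FPKM for the proteases. Glb1, the β-galactosidase (ENSMUSG00000045594, chromosome 9, 114230144 to 114303966), measured 6.35, 7.13 and 3.52 FPKM in A1, A2 and A8 against 7.55, 9.36 and 7.55 FPKM in A4, A9 and A10. The units did not overlap, and A8 was well below the other Ctrl units. Its difference was 0.49 (log2, SE 0.25, limma adjusted p = 0.730), and 0.23 without A8. Gusb, the β-glucuronidase, averaged 5.24 ± 3.08 FPKM in Ctrl and 3.97 ± 1.39 FPKM in the units labelled cKO, with A8 at 8.79 FPKM above all other units. Without A8 its difference turned from -0.26 to 0.12. Gaa, the α-glucosidase that degrades glycogen, averaged 27.4 ± 1.93 and 29.2 ± 2.42 FPKM. Hexa, a subunit of a ganglioside-degrading hexosaminidase, averaged 14.5 ± 2.43 and 15.5 ± 0.546 FPKM. Neither differed beyond the spread of its units.

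Among the enzymes of lipids, Asah1, the acid ceramidase (ENSMUSG00000031591, chromosome 8, 41793234 to 41827810), measured 35.5, 37.8 and 43.6 FPKM in Ctrl A1, A2 and A8 and 46.9, 45.0 and 43.6 FPKM in A4, A9 and A10. A10 was above A8 by a margin lost in rounding, so the separation is slight. The difference was 0.21 (log2, SE 0.12, limma adjusted p = 0.764). Lipa, the acid lipase that releases cholesterol from its esters (ENSMUSG00000024781, chromosome 19, 34469718 to 34504874), averaged 4.63 ± 0.164 FPKM in Ctrl and 3.98 ± 0.378 FPKM in the units labelled cKO. Its units did not overlap, and the difference was -0.18 (SE 0.16, limma adjusted p = 0.877). Smpd1, the acid sphingomyelinase, averaged 25.6 ± 2.14 and 30.3 ± 4.79 FPKM, and Ppt1, a thioesterase that removes palmitate from proteins, 20.2 ± 4.34 and 21.4 ± 2.54 FPKM. Both overlapped between genotypes.

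Psap, the precursor of the saposins that help hydrolases reach sphingolipids, was the most abundant member. It measured 397, 384 and 388 FPKM in A1, A2 and A8 and 381, 435 and 412 FPKM in A4, A9 and A10. The groups overlapped through A4, and the difference was 0.07 (log2, SE 0.10). Grn, which encodes progranulin, a secreted and lysosomal precursor of granulins, averaged 10.6 ± 3.53 FPKM in Ctrl and 13.3 ± 2.36 FPKM in the units labelled cKO. It ranged 2.30-fold between the highest and lowest unit, and its difference of 0.34 (SE 0.26, limma adjusted p = 0.852) did not pass. Without A1, its low unit, the difference was 0.09, and without A8 it was 0.54.

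Of the 7 lysosomal membrane proteins, 3 were higher and 4 lower in the units labelled cKO. Mcoln1, the calcium channel mucolipin of the lysosomal membrane (ENSMUSG00000004567, chromosome 8, 3550457 to 3565232), measured 5.24, 5.08 and 6.10 FPKM in Ctrl A1, A2 and A8 and 3.54, 4.21 and 3.39 FPKM in A4, A9 and A10. The units did not overlap, nor did the libraries. The mean was 5.47 ± 0.548 against 3.72 ± 0.438 FPKM, and the difference was -0.46 (log2, SE 0.17, unadjusted p = 0.029, limma adjusted p = 0.590). Without A9 it was -0.53, and without A8 -0.39. Scarb2, the membrane protein LIMP-2 that carries glucocerebrosidase to lysosomes (ENSMUSG00000029426, chromosome 5, 92589173 to 92654692), measured 60.3, 61.0 and 64.7 FPKM against 49.5, 57.9 and 53.2 FPKM. The groups were apart here too, with A9 nearest to Ctrl. Its difference was -0.21 (SE 0.11, limma adjusted p = 0.730).

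Laptm4a, a small membrane protein with several spans (ENSMUSG00000020585, chromosome 12, 8971598 to 8988742), measured 143, 128 and 151 FPKM in Ctrl A1, A2 and A8 and 153, 171 and 151 FPKM in A4, A9 and A10. A10 exceeded A8 by under 1 FPKM, and the difference was 0.17 (log2, SE 0.11, limma adjusted p = 0.824). Lamp1, a major glycoprotein of the lysosomal membrane, measured 167, 161 and 155 FPKM against 136, 173 and 145 FPKM. A9 was the highest unit and A4 the lowest, so the groups overlapped, with a difference of -0.10 (SE 0.12). Lamp2, its relative that also takes part in chaperone-mediated autophagy, measured 37.3, 35.2 and 29.5 FPKM against 37.2, 43.9 and 38.3 FPKM. A4 and A1 were nearly level, and the difference was 0.22 (SE 0.13, limma adjusted p = 0.787). Lamp1 and Lamp2 thus lay on opposite sides, and the units of each overlapped between genotypes.

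Cln3, the membrane protein lost in a juvenile form of neuronal ceroid lipofuscinosis, was the scarcest member of this group. It measured 2.94, 2.90 and 2.02 FPKM in A1, A2 and A8 and 1.52, 2.94 and 3.15 FPKM in A4, A9 and A10. A4 and A8 were the low units, 1 of each genotype, and without A4 the difference turned from -0.06 to 0.17 (log2). Cd63, a tetraspanin of late endosomes and lysosomes, averaged 43.0 ± 3.45 FPKM in Ctrl and 49.0 ± 7.86 FPKM in the units labelled cKO, with overlapping units. Its pseudogene Cd63-ps had 36 to 137 reads per library against at least 2583 for Cd63.

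All 4 V-ATPase genes were lower on average in the units labelled cKO as deposited, while 3 of the 4 were higher after upper quartile scaling. Only Atp6ap1, an accessory subunit of the pump (ENSMUSG00000019087, chromosome X, 73340703 to 73348327), had units that did not overlap. It measured 43.6, 43.6 and 40.3 FPKM in A1, A2 and A8 against 31.8, 37.8 and 37.9 FPKM in A4, A9 and A10. A4 was the low unit, and the difference was -0.24 (log2, SE 0.12, limma adjusted p = 0.714). Atp6v1a, the catalytic subunit that hydrolyses ATP, averaged 17.4 ± 1.46 and 16.5 ± 0.333 FPKM. Atp6v0d1, a subunit that couples the rotor to the ring, averaged 37.3 ± 7.03 and 36.7 ± 4.33 FPKM, and Atp6v0c, the ring subunit that carries protons, 19.6 ± 4.35 and 19.4 ± 3.06 FPKM. The last pair were level between genotypes within 0.02 (log2). Pseudogene Atp6v0c-ps2 had 8 to 143 reads per library, against at least 853 for Atp6v0c.

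Genes that start autophagosome formation were scarce beside most other members, though Ulk1 and Wipi2 were above the median of all tested genes. Becn1, the scaffold of the lipid kinase complex, measured 1.83, 2.99 and 4.06 FPKM in Ctrl A1, A2 and A8 and 2.18, 1.96 and 2.40 FPKM in A4, A9 and A10. The Ctrl units spanned the whole range of the others, and the difference of -0.28 (log2, SE 0.27, limma adjusted p = 0.891) was about as large as its error. Without A1 it was -0.50, and without A8 -0.08. Ulk1, the kinase that starts the process, averaged 5.66 ± 0.931 FPKM in Ctrl and 6.27 ± 1.40 FPKM in the units labelled cKO. Wipi2, which reads the lipid mark on the growing membrane, was the steadiest of these genes at 6.17 ± 0.0961 and 5.83 ± 0.437 FPKM. Atg5, part of the complex that attaches Atg8 proteins to lipid, averaged 7.32 ± 1.03 and 6.98 ± 1.01 FPKM. Atg7, the activating enzyme of the same reaction, averaged 4.84 ± 1.97 and 4.73 ± 0.488 FPKM. None of these 5 genes had separate units.

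The Atg8 family proteins mark the autophagosome membrane and bind cargo receptors. Map1lc3a measured 22.4, 27.6 and 15.4 FPKM in Ctrl A1, A2 and A8 and 17.5, 13.1 and 18.0 FPKM in A4, A9 and A10. Groups overlapped through A8, the low Ctrl unit, and the difference was -0.38 (log2, SE 0.23, limma adjusted p = 0.803), or -0.60 without A8 and -0.20 without A2. Map1lc3b (ENSMUSG00000031812, chromosome 8, 122317100 to 122325499) measured 16.6, 15.8 and 15.2 FPKM against 14.1, 14.5 and 13.1 FPKM. These units did not overlap, at a difference of -0.18 (SE 0.12, limma adjusted p = 0.823). Gabarap measured 48.6, 51.3 and 24.5 FPKM against 38.5, 30.6 and 42.2 FPKM. A8 was the lowest of all units for Gabarap, whose difference was -0.10 with it and -0.43 without it. Gabarapl1 measured 26.9, 37.2 and 19.6 FPKM against 26.5, 28.8 and 32.0 FPKM. It likewise had its lowest unit in A8, and its difference moved from 0.10 to -0.12 without that unit.

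As shares of the 4 Atg8 members' summed FPKM, Gabarap took 38.0 ± 4.86% in Ctrl and 38.4 ± 2.78% in the units labelled cKO. Map1lc3a took 19.5%, 20.9% and 20.6% in A1, A2 and A8 and 18.2%, 15.1% and 17.1% in A4, A9 and A10. This share did not overlap between the genotypes, in contrast to the level of Map1lc3a, and it was not tested. Gabarapl1 took 26.0 ± 2.35% and 30.3 ± 2.82%, and Map1lc3b 15.6 ± 4.31% and 14.6 ± 2.13%. The sum of the 4 members was 114.5, 131.8 and 74.7 FPKM in A1, A2 and A8, and A8 held least of all units. In A4, A9 and A10 it was 96.6, 87.0 and 105.3 FPKM. Shares and sum leave out Gabarapl2, of the same family but on the list of other core autophagy genes. Gabarapl2 measured 20.8, 18.2 and 12.7 FPKM in A1, A2 and A8 and 12.8, 15.4 and 15.8 FPKM in A4, A9 and A10. Sqstm1, the receptor p62 that links ubiquitinated cargo to these proteins, averaged 37.4 ± 4.17 FPKM in Ctrl and 35.6 ± 3.63 FPKM in the units labelled cKO, with overlapping units.

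The count of members at an unadjusted p under 0.05 depended on single units. It was 2 with all units and 4 without A8 (Ctsl, Asah1, Map1lc3a and Gabarap), where the share of all genes was 13.9% in place of 7.69%. Without A2 it was 3, without A9 it was 2, and without A1, A4 or A10 it was 1. The share of all genes was then 6.86% without A2 and 4.93% without A9. It was 7.16%, 5.26% and 6.35% without A1, A4 and A10. Ctsl was in each of these sets. Mcoln1 was lost without A1, A8, A4 or A10. The number of members with separate units cannot fall when a unit is left out. It was 16 without A4, the unit labelled cKO that had Tnfrsf1b reads, and 17 without A8. Without A1 or A10 it was 13, and without A2 or A9 it was 11. The share of all genes with separate units was 19.8% without A4 and 33.4% without A8. It was 22.6% without A1, 21.8% without A10, 22.4% without A2 and 19.8% without A9.

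Libraries S1 and S2 of one unit agreed closely for the members. S2 differed from S1 by a median size of 0.02 (log2) over the members and 0.04 over all genes. With the A number as a block, 1 member passed, Atp6v0c, higher in S2 by 0.15 (limma adjusted p = 0.023), where 243 genes (1.39%) passed in all. In S1 and S2, Atp6v0c read 17.9 and 19.7 FPKM in A1, 14.6 and 16.9 in A2, 23.2 and 25.4 in A8, 14.8 and 17.1 in A4, 19.2 and 22.0 in A9, and 21.2 and 22.3 in A10. S2 was thus higher in each of the 6 units. Leaving out any unit but A10 ended this call.

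Other genes of the pathway were read from 8 lists holding 209 genes, of which 188 were tested. None passed the limma threshold, and 17 had an unadjusted p under 0.05, 6 higher and 11 lower, beside 7.69% of all tested genes, 2.98% higher and 4.71% lower. The higher genes numbered 1 without A9 and 3 without A2 or A10, and the lower genes 18 without A8. The share of all genes at that p, both sides together, moved too. It was 4.93% without A9, 6.86% without A2, 6.35% without A10 and 13.9% without A8. Units did not overlap in 38, 16 higher and 22 lower, beside 13% of all tested genes, 5.76% higher and 7.22% lower. The median difference was -0.01 (log2). After upper quartile scaling the median was 0.06, with 8 genes higher and 9 lower at an unadjusted p under 0.05. The plot of differences by list shows the medians on both sides of 0.

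**Figure D4:**
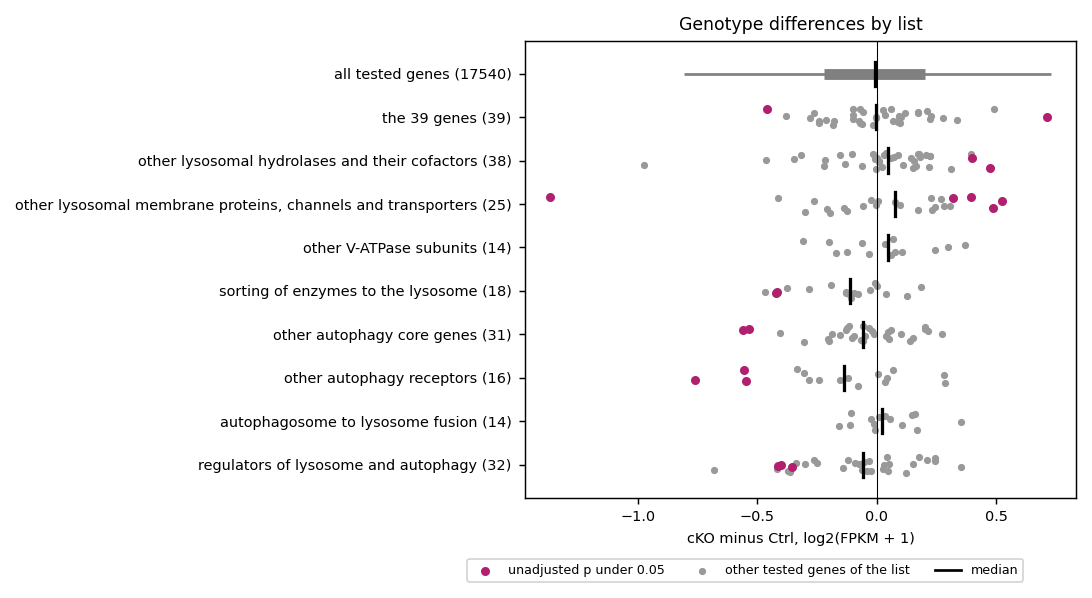
Differences, units labelled cKO minus Ctrl, on the log2(FPKM + 1) scale for the 39 genes and the 8 other lists, with the number tested in brackets, medians as black lines, and a grey bar and line for the middle 50% and the middle 90% of all tested genes. Genes at an unadjusted p under 0.05 are magenta, and Tmem63a at -1.37 lies farthest out.

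Among other hydrolases and their cofactors 2 of 38 reached that unadjusted p, both higher, a share near the 7.69% of all genes. Leaving out any unit but A8 left 1 higher. Hyal1, a hyaluronidase, averaged 5.45 ± 0.340 FPKM in Ctrl and 7.98 ± 0.751 FPKM in the units labelled cKO (log2 0.47), and Aga, which cuts the link between sugar and asparagine, 5.65 ± 0.268 and 7.85 ± 1.42 FPKM (0.40). Among other membrane proteins 5 of 25 reached it, 4 higher and 1 lower. Tmem175, a lysosomal potassium and proton channel, averaged 4.95 ± 0.453 and 7.60 ± 1.47 FPKM (0.52). Ctns, the cystine exporter, averaged 7.84 ± 0.188 and 10.6 ± 0.889 FPKM (0.39), and Cln6, an endoplasmic reticulum protein needed to export lysosomal enzymes, 3.57 ± 0.760 and 5.35 ± 0.680 FPKM (0.49). Their limma adjusted p ran from 0.487 to 0.643. All 5 had units that did not overlap. Without A9 the membrane list had 0 higher genes at that p.

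Tmem63a, a mechanically gated channel, had the largest difference of the other lists on the log2 scale. It measured 19.0, 21.2 and 11.0 FPKM in A1, A2 and A8 and 4.31, 5.65 and 7.75 FPKM in A4, A9 and A10, and the units did not overlap. Its difference was -1.37 (log2, SE 0.29, limma adjusted p = 0.333), or a limma adjusted p of 0.0218 in the fit with a random effect for the unit. The summed oligodendrocyte markers went the same way by unit, at 2172, 2354 and 1096 FPKM in A1, A2 and A8 and 313, 447 and 753 FPKM in A4, A9 and A10. Their part in the result was not tested.

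Autophagy receptors had 3 of 16 genes at an unadjusted p under 0.05, all lower, where 4.71% of all genes were lower at that p. The count was 1 without A2 and 2 without A1, A9 or A10. Retreg1, the receptor that sends endoplasmic reticulum to autophagy, averaged 8.30 ± 1.94 FPKM in Ctrl and 4.47 ± 0.971 FPKM in the units labelled cKO (log2 -0.76). Pink1, the kinase that marks damaged mitochondria, averaged 51.1 ± 12.4 and 33.9 ± 4.09 FPKM (-0.56). Bnip3l, a mitochondrial receptor for autophagy, averaged 29.4 ± 4.77 and 19.6 ± 0.362 FPKM (-0.55). Of the other core autophagy genes 2 of 31 were below, among them Wipi1, a lipid binding protein related to Wipi2, at 14.3 ± 2.22 and 9.38 ± 1.31 FPKM (-0.56). These 4 had limma adjusted p from 0.411 to 0.590. For Retreg1, Pink1 and Bnip3l the Ctrl unit nearest to the others was A8. Of the Ctrl units, A8 also had the lowest summed markers of oligodendrocytes and their precursors. The same held for endothelial, mural, ependymal and neuronal markers, while its astrocyte markers were the highest. The part of these cell types in the values was not tested.

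In the remaining lists no gene was higher at that p. Of 18 genes that sort enzymes to lysosomes 2 were lower, and of 32 regulators 3 were lower (1 after either rescaling). Over all tested genes 4.71% were lower at that p. The sorting count was 0 without A1, 1 without A4 or A10 and 3 without A8. The regulator count was 1 without A4 or A10. Of 14 other V-ATPase subunits and 14 fusion genes there were 0. No member or other pathway gene passed the limma threshold in the comparison of unit means. The 2 that passed when the unit was a random effect were Ctsl and Tmem63a, in a fit that drew on single libraries of the same units.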

How the data were processed

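Per the labels' protocols, RNA from sorted astrocytes was amplified with the SMART-Seq V4 Ultra Low Input kit, and an Illumina HiSeq 2500 gave paired reads of 125 bases. FastQC, STAR, featureCounts, DESeq2 and the builds mm10 and GRCm38 are named in the submitters' processing notes, with no versions or roles. The authors deposited FPKM values. In the deposited table, FPKM times exonic length in kilobases sums to 1000000 in every library. Positions there match GENCODE M21 (GRCm38) for 2.77% of matched genes and 0 members, so they are printed as deposited.

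Rows sharing a symbol were summed. Read numbers were worked out from the smallest FPKM steps of each library, and 82.8% to 86.3% of genes came out whole within 0.02 reads. Whole reads in all libraries were found for 14 members and parts of reads, as shared reads leave, for 25. Reads carry no molecular identifiers, so depths cover counting error only. S1 and S2 of one A number correlated across genes at 0.980 to 0.984, against 0.788 to 0.896 between A numbers, and were averaged as log2(FPKM + 1), with a pseudocount of 1. The genotype fit used limma 3.58.1 under R 4.3.3 (eBayes with a variance trend, two-sided, Benjamini-Hochberg over 17540 genes, threshold 0.05). It was tested on simulated data, only at differences larger than that of any member. How often it would find differences as small as those of the members was not tested. A difference on this scale understates the change of low genes. S2 was compared with S1 with the A number as a block. Tables were made with Python 3.11.15. The voom fit used recovered reads as an alternative; others were another pseudocount, filter, scaling, averaging and moderation, S1 or S2 alone, a random effect of the unit with and without a replicate block, and each unit left out. Those with a replicate number share only S1 or S2: S2 minus S1 correlated between A numbers at 0.133 to 0.190.

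Members, roles, lists and tests were chosen with earlier results of these data known, so no p over the list alone is given. Unit values are given for the 10 members with the smallest p, the 3 highest and 3 lowest by mean FPKM, Tfeb, Tfe3 and the Atg8 family; other members by mean and SD. Of the other lists, the 5 highest and 5 lowest differences at an unadjusted p under 0.05 are named, with any gene past the threshold, and outside them Tnfrsf1b, Gfap and markers at 0; P2ry12 was named after its values were seen. Gfap averaged 78.5 FPKM in Ctrl and 117 FPKM in the units labelled cKO. Summed neuronal markers were 11.9 to 13.5 FPKM in Ctrl and 5.80 to 10.1 FPKM in those labelled cKO, endothelial 4.78 to 44.8 and 4.17 to 31.9, mural 46.5 to 77.9 and 64.9 to 85.7, ependymal 63.2 to 259 and 55.3 to 164, and perivascular macrophage markers at most 0.870.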

Additional observations from a re-analysis of the deposited data

How the results depend on the processing

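Over 18 alternatives 23 of the 39 members kept their direction, and 40 of 694 values were reversed, all among the other 16. Entering the 12 libraries singly, with a random effect for the unit, gave 112 genes in all, 1 member (Ctsl) and 1 other pathway gene (Tmem63a). With the replicate block of S1 and S2 added, the counts were 80, 1 and 1, and Ctsl had a limma adjusted p of 0.0476. Leaving out a unit gave 0 to 1 genes in all, the 1 without A1. Upper quartile scaling moved the mean member difference from 0.014 to 0.087 and median-of-ratios scaling to 0.039, and the shift of all genes was 0.064 and 0.023. For S2 against S1, leaving out a unit gave 152 to 180 genes and 0 to 1 members, no filter gave 152 genes, and without the replicate block of the A number there were 22 genes and 0 members. Median-of-ratios scaling gave 3 members and upper quartile scaling 2.

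Differences (log2) that were reversed follow. With S1 alone Tpp1 was 0.0069 and Atp6v0d1 0.0014, and with S2 alone Tfe3 was -0.017 and Atg7 -0.0093. With median-of-ratios scaling Tpp1 was 0.025, Atp6v0c 0.024 and Atp6v0d1 0.013. With upper quartile scaling Tpp1 was 0.076, Atp6v0c 0.073, Atp6v0d1 0.063, Atp6v1a 0.0048, Sqstm1 0.0096 and Atg5 0.0068. Leaving out units gave -0.492 to 0.118 for Gusb, -0.241 to 0.010 for Ctsa, -0.034 to 0.210 for Ulk1, -0.021 to 0.251 for Ppt1, -0.0078 to 0.155 for Ctsb, -0.122 to 0.325 for Gabarapl1, -0.167 to 0.044 for Atg5, -0.430 to 0.089 for Gabarap, -0.190 to 0.169 for Cln3, -0.083 to 0.13 for Tfe3, -0.223 to 0.273 for Atg7, -0.177 to 0.073 for Atp6v0d1, -0.143 to 0.157 for Atp6v0c and -0.159 to 0.144 for Tpp1. The cause was not tested. A filter at a mean of 5 FPKM removed the scarcest members, so those have no value there. With 3 units a genotype, the median standard error of a member's difference was 0.16.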

Other observations

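The other 7 pathway genes at an unadjusted p under 0.05 were named after their values were seen. Cd164, a sialomucin of endosomes and lysosomes, was higher by 0.32 (log2). The rest were lower in the units labelled cKO: Vmp1, which helps form the autophagosome, at -0.53, Vps26a, a retromer subunit, at -0.42, Gnptab, which makes the mannose 6-phosphate tag, at -0.42, Trp53inp2 at -0.41, Fnip2 at -0.40 and Rragc, a Rag GTPase of nutrient sensing, at -0.36. All 7 had a limma adjusted p above the threshold.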
